A study of Mus musculus with 13 samples.

Results

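A set of 47 interferon-stimulated genes and guanylate-binding GTPases was followed in bulk RNA sequencing of liver endothelial cells (LECs), the cells that line the vessels and sinusoids of the liver. The members were taken by gene symbol from a table of 24421 symbols. The list was chosen with earlier results of these data known. All 47 were present, and 46 had enough counts to be tested. The germ-free (GF) group, reared without microbes, had 6 libraries, numbered 8 to 13, and the conventionally raised (CONV-R) group had 7, numbered 1 to 7. Both groups were of wild-type genotype, and neither carried a named allele or treatment. The labels give no strain, age, sex or isolation method, nor whether a library came from 1 animal, so that p-values cover no more than the spread among these libraries. Library names carry a code number, which was 6 for all GF libraries, 9 for CONV-R 5 to 7 and 10 for CONV-R 1 to 4. What the number stands for is not stated, and it cannot be told apart from the group.

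Type I interferons bind a receptor whose kinases phosphorylate STAT2, which joins IRF9 in the complex ISGF3, and this complex binds the interferon-stimulated response element (ISRE). Interferon-gamma acts through a separate receptor and on gamma-activated sequences (GAS) in genes such as Irf1 and Irf8. It also induces Socs1 and guanylate-binding proteins. A low level of interferon signal is present in many tissues without infection, and signals from gut microbes are known to help set it. Liver sinusoidal endothelium receives blood from the gut through the portal vein.

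Depth was 23407168 to 35478115 counts in GF libraries and 7590320 to 32869515 in CONV-R libraries, and the difference did not pass an exact two-sided permutation test (p = 0.088). Endothelial markers were abundant in all libraries: 12 listed genes, among them Stab2, Clec4g and Lyve1, summed to 33248 ± 685 CPM (counts scaled to library size) in GF and 28366 ± 4669 CPM in CONV-R (SD, n = 6 and 7), with 19041 CPM in CONV-R 1. Of these 12 genes, 6 passed as higher in GF, by 1.29-fold (Tek) to 1.91-fold (Lyve1), and 0 as lower. Markers of other cells were present too. The summed hepatocyte markers (14 in the table) ranged from 698 to 1064 CPM in GF and from 1179 to 7302 CPM in CONV-R, and 12 of them passed as lower in GF. Neutrophil and monocyte markers summed to 126 to 246 CPM in GF and 289 to 2316 CPM in CONV-R, with 9 of 12 lower. For B cells the sums were 20.1 to 37.96 CPM in GF and 59.1 to 1775 CPM in CONV-R, with 8 of 8 lower. Kupffer cell markers, of the resident liver macrophages, summed to 3074 to 4745 CPM in GF and 3365 to 9194 CPM in CONV-R, with 1 of 12 lower. Plasmacytoid dendritic cell markers summed to 639 to 756 CPM in GF and 653 to 1053 CPM in CONV-R, with 3 of 9 tested lower (Siglech, Ccr9 and Spib) and 1 higher. Most of that sum was Bst2 and Tcf4, at 334 and 311 CPM in GF and 345 and 307 CPM in CONV-R. Those of conventional dendritic cells summed to 192 to 269 CPM in GF and 215 to 346 CPM in CONV-R, with 4 of 9 lower (Flt3, Cd209a, Ccr7 and Batf3), and those of T and NK cells to 53.4 to 192 CPM in GF and 52.7 to 239 CPM in CONV-R. Most of the conventional dendritic cell sum was Zbtb46 and Clec9a, at 122 and 105 CPM in GF and 105 and 93.0 CPM in CONV-R. By exact two-sided permutation tests adjusted over 8 lists, the endothelial (adjusted p = 0.0175), hepatocyte (0.00622), neutrophil and monocyte (0.00466) and B cell sums (0.00466) differed between groups. The Kupffer (0.112), plasmacytoid (0.148), conventional dendritic (0.408) and T and NK cell sums (0.677) did not pass. No marker on these lists was at 0 in all libraries. Since the samples are bulk RNA, fewer cells of a type and less RNA per cell cannot be told apart, and the part these cells play in the values of the interferon genes was not tested.

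The promoters of members that passed the test, where RefSeq (GRCm38.p6) lists one, are shown. Letters through which interferon is known to reach many such genes are marked where they occur. Each runs from 250 bases before to 50 bases after a transcription start, 5′ to 3′ on the strand of the gene. Capitals mark matches to a core of the ISRE (GAAA, any 2 bases and GAAA again) or to the GAS (TTCNNNGAA), searched on both strands. The members higher in GF were Ifit1 (chr19:34640639-34640938, + strand), Rsad2 (chr12:26456403-26456702, - strand), Cmpk2 (chr12:26468965-26469264, + strand) and Gbp7 (chr3:142530086-142530385, + strand).
Ifit1: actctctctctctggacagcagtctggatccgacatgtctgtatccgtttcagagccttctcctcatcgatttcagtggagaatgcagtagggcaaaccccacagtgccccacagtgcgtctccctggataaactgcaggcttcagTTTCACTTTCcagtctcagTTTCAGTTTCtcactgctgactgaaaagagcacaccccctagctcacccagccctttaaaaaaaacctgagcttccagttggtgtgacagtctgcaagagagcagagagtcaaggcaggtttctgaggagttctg
Rsad2: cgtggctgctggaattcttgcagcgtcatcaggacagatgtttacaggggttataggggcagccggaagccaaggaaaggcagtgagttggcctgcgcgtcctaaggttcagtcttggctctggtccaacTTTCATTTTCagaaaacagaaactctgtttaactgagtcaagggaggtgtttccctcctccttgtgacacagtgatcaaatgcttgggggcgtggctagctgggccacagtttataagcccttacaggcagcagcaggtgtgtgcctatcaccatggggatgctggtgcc
Cmpk2: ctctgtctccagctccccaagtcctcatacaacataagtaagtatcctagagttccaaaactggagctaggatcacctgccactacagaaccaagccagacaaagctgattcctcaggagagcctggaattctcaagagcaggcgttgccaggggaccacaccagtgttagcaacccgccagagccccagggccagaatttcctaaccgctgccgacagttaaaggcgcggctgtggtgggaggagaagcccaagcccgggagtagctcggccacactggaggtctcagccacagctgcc
Gbp7: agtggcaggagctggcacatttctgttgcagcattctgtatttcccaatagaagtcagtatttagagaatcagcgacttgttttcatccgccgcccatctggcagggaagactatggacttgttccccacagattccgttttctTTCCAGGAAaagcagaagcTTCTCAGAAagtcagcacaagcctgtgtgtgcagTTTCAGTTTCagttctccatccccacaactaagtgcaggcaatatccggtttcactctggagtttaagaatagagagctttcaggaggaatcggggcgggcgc
Of the members lower in GF, Socs1 (chr16:10785487-10785786, - strand) and Irf8 (chr8:120736108-120736407, + strand, the nearer to the annotated gene start of 2 listed promoters) had an entry. Zbp1, Oas2, Mx1 and Gbp8 are named only.
Socs1: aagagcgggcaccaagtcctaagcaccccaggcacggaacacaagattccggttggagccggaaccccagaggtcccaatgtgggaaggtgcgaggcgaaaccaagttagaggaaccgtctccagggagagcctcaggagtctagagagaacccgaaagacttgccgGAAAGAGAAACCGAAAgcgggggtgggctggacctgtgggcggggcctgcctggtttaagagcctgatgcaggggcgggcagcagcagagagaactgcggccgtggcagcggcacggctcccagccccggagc
Irf8: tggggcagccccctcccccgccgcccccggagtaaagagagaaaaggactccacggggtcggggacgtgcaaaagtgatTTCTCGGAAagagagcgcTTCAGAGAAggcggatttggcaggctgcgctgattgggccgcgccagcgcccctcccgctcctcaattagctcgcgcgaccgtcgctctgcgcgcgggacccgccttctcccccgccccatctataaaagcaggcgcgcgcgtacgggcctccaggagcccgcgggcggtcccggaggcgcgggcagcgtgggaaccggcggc
Ifit1 and Socs1 each held 2 matches to the ISRE core, which overlapped in Socs1, while Rsad2 and Gbp7 held 1. Gbp7 also held 2 matches to the GAS, as did Irf8, whose window had no match to the ISRE core. The window of Cmpk2 held neither set of letters. Over the whole set, 32 of 47 members had a promoter in the table, and 21 of these 32 (65.6%) held the ISRE core, against 3.99% of 27025 genes. The GAS was found in 10 of 32 members (31.2%), against 9.55% of genes. Matches describe letters in the window, and whether a factor binds there was not measured.

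In LECs from GF mice, few of the interferon-stimulated genes passed a test against CONV-R mice, and those that did went both ways. Of 46 tested members, 4 were higher in GF (Ifit1, Rsad2, Cmpk2 and Gbp7), by 1.29-fold to 1.31-fold, and 6 were lower (Irf8, Socs1, Zbp1, Oas2, Mx1 and Gbp8), with CONV-R 1.59-fold to 2.34-fold above GF. The other 36 did not pass (edgeR quasi-likelihood test, adjusted p under 0.05 over 13915 genes). Among all genes tested, 11.4% were higher and 12.7% lower in GF, and the shares of the members were near these. The median log2 fold change, GF over CONV-R, was 0.0035 over the members and -0.0092 over all genes. An unadjusted p under 0.05 was reached by 18 of 46 members, against 38.9% of all genes. Cmpk2 was the member whose 6 GF values all exceeded the highest CONV-R value, an order held by 5.94% of all genes. In 0 members did all GF values fall short of the lowest CONV-R value, against 4.32% of genes. Scaled to library totals in place of TMM, 2 members were higher and 8 lower, beside 6.97% and 19.9% of all genes.

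**Figure D1:**
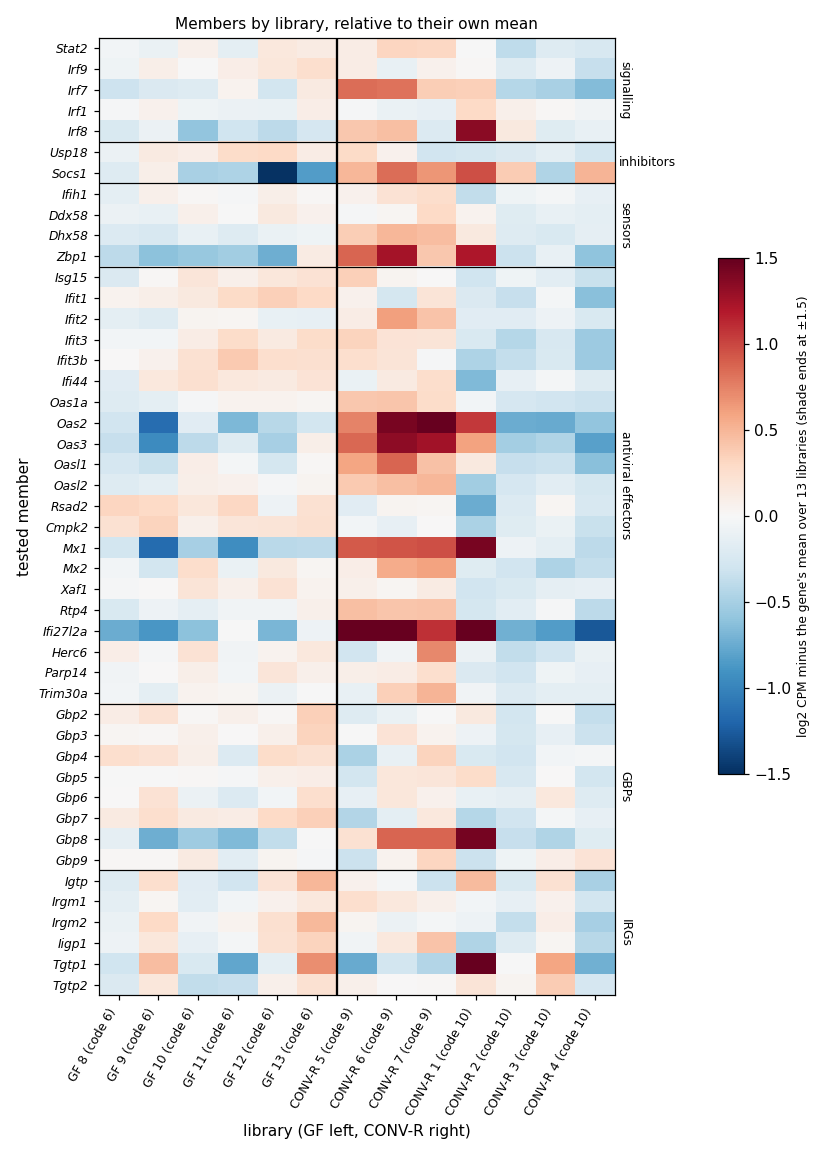
Each row is 1 of the 46 tested members, grouped by role, and each column is a library, with the 6 GF libraries left of the 7 CONV-R libraries (code 9, then code 10). Colour gives log2 CPM minus the gene's mean over the 13 libraries. Oas2, Oas3, Mx1, Zbp1, Ifi27l2a and Gbp8 are red in CONV-R 1, 5, 6 and 7, while CONV-R 2, 3 and 4 resemble the GF columns.

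The heat map of members by library shows that CONV-R libraries differed more among themselves than GF libraries did. The SD of log2 CPM was larger in CONV-R for 42 of 46 members (91.3%), a share near the 90.3% of all genes tested. Its median over the members was 0.139 in GF and 0.287 in CONV-R, against 0.127 in GF and 0.263 in CONV-R over all genes. Per kilobase of exon, the most abundant members in GF were Ifit3 (66.3 CPM per kb in GF, 58.0 in CONV-R), Irf1 (54.7 in GF, 56.1 in CONV-R), Parp14 (46.3 in GF, 44.2 in CONV-R) and Gbp4 (45.9 in GF, 38.5 in CONV-R). Ifi27l2a stood at 29.3 CPM per kb in GF and at 72.8 in CONV-R, where its libraries differed widely. All further levels of these genes are CPM of the TMM-scaled library and are compared between groups, not between genes.

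Of the 5 signal transducers and transcription factors, 1 was lower, Irf8, and 0 were higher. Beside this and the other counts by role, 11.4% of all genes tested were higher in GF and 12.7% lower. No other of the 5 had an unadjusted p under 0.05 (edgeR). Stat2, a subunit of ISGF3, had 176 to 218 CPM (median 197) in GF and 150 to 244 CPM (median 193) in CONV-R. The GF range lay within that of CONV-R, and the log2 fold change was 0.0048 ± 0.116 (SE). Irf9, the DNA-binding subunit of ISGF3, had 90.2 to 113 CPM (median 101.4) in GF and 74.3 to 103 CPM (median 89.6) in CONV-R, and Irf1, which is induced by interferon-gamma and was the most abundant factor per kilobase, had 205 to 235 CPM (median 214) in GF and 201 to 271 CPM (median 217) in CONV-R. Both pairs of ranges overlapped. Irf7, the factor that amplifies type I interferon production, had 115 to 157 CPM (median 124) in GF and 90.7 to 254 CPM (median 182) in CONV-R, where libraries 1, 5, 6 and 7 exceeded the GF range and 2, 3 and 4 fell short of it. Its log2 fold change of -0.35 ± 0.24 did not pass (adjusted p = 0.293).

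Irf8, a factor of macrophages, dendritic cells and B cells that also responds to interferon-gamma (ENSMUSG00000041515.10, chr8:120736358-120756694), had 48.4 to 68.3 CPM (median 60.2) in GF and 63.03 to 186 CPM (median 80.7) in CONV-R. The highest value was that of CONV-R 1, while CONV-R 3, 4 and 7 lay within the GF range. The log2 fold change was -0.67 ± 0.23 (edgeR, adjusted p = 0.0460). The call was lost when CONV-R 5 or 6 or any 1 of the GF libraries was left out (adjusted p = 0.0615 to 0.0863). Without CONV-R 1 the log2 fold change was -0.42 ± 0.12 (adjusted p = 0.0269). CONV-R 1 also had the highest B cell marker sum, 1775 CPM against 59.1 to 84.8 CPM in the other CONV-R libraries, and its Kupffer cell sum was 8088 CPM. Its plasmacytoid and conventional dendritic cell sums, 1053 and 346 CPM, were the highest of all libraries. The dendritic cell markers lower in GF (Siglech, Ccr9, Spib, Flt3, Cd209a, Ccr7 and Batf3) were all highest there, while Tcf4 and Zbtb46 were lowest there. The part of these cells in the Irf8 values was not tested.

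Of the 2 feedback inhibitors, Socs1, which blocks the receptor kinases (ENSMUSG00000038037.5, chr16:10782240-10785536), was lower in GF. It had 1.99 to 5.92 CPM (median 4.01) in GF and 4.06 to 10.8 CPM (median 7.92) in CONV-R, from raw counts of 69 to 265. CONV-R 3 lay within the GF range, and the other 6 lay above it. This gave a log2 fold change of -1.02 ± 0.25 (edgeR, adjusted p = 0.0126). The call held when any 1 library was left out, but not against the code 10 libraries only (-0.91, adjusted p = 0.0771). Usp18, which removes ISG15 and blocks the type I receptor, had 23.2 to 30.2 CPM (median 26.8) in GF and 20.2 to 30.2 CPM (median 21.2) in CONV-R. Here the value ran the other way (log2 fold change 0.25 ± 0.10) and did not pass (adjusted p = 0.0875).

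Among the 4 nucleic acid sensors, Zbp1 was lower and the 3 RIG-I-like receptors did not pass. Zbp1, a sensor of left-handed nucleic acid that can start necroptosis (ENSMUSG00000027514.14, chr2:173206612-173218923), had 8.06 to 14.5 CPM (median 9.16) in GF and 8.78 to 31.9 CPM (median 17.7) in CONV-R. CONV-R 2, 3 and 4, at 10.7, 12.4 and 8.78 CPM, lay within the GF range, and CONV-R 1, 5, 6 and 7, at 31.1, 24.4, 31.9 and 17.7 CPM, lay above it. Its log2 fold change was -0.96 ± 0.30 (edgeR, adjusted p = 0.0336), and the call was lost without CONV-R 1, 5 or 6 or any 1 of GF 8 to 12 (adjusted p = 0.0568 to 0.0697). Ddx58, which encodes RIG-I and was the most abundant sensor per kilobase, had 115.9 to 138 CPM (median 127) in GF and 110 to 154 CPM (median 123) in CONV-R. Ifih1, which encodes MDA5, had a log2 fold change of 0.0023 ± 0.089, and Dhx58, which encodes the regulator LGP2, of -0.31 ± 0.12 (adjusted p = 0.0866).

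Of the 21 antiviral effectors, 3 were higher and 2 lower in GF, beside 11.4% and 12.7% of all genes. Cmpk2, a mitochondrial nucleotide kinase (ENSMUSG00000020638.8, chr12:26469204-26479837), had 55.3 to 66.2 CPM (median 60.6) in GF and 37.8 to 52.6 CPM (median 48.2) in CONV-R. The groups did not overlap. The log2 fold change was 0.38 ± 0.075 (edgeR, adjusted p = 0.00396), and this call held without any 1 library, at a threshold of 0.01 and against CONV-R of either code number, but not with the hepatocyte marker sum as a covariate, where the log2 fold change was 0.37 ± 0.12 (adjusted p = 0.128). Rsad2, which encodes viperin, an enzyme that makes a chain-terminating nucleotide (ENSMUSG00000020641.16, chr12:26442746-26456452), is its neighbour on chromosome 12, with 12751 bases between them. It had 113 to 148 CPM (median 142) in GF and 70.9 to 122 CPM (median 105) in CONV-R. GF 12 lay among the CONV-R libraries and CONV-R 1 was the lowest of all. This gave a log2 fold change of 0.37 ± 0.11 (edgeR, adjusted p = 0.0310), and the call was lost without CONV-R 2 or 5 or any 1 of GF 8, 9, 10, 11 and 13 (adjusted p = 0.0536 to 0.0765).

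Ifit1, whose product binds viral RNA that lacks the host cap pattern (ENSMUSG00000034459.8, chr19:34640871-34650009), had 25.2 to 31.2 CPM (median 28.4) in GF and 15.8 to 27.9 CPM (median 20.9) in CONV-R. CONV-R 5 and 7 lay within the GF range and the other 5 below it. Its log2 fold change was 0.36 ± 0.12 (edgeR, adjusted p = 0.0350), and the call was lost without CONV-R 1, 2 or 6 or any 1 of GF 9 to 13 (adjusted p = 0.0560 to 0.0846). Its relatives did not pass: Ifit3b had a log2 fold change of 0.35 ± 0.13 (adjusted p = 0.0664), Ifit3 of 0.20 ± 0.14 and Ifit2 of -0.19 ± 0.13. Ifit3 and Ifit3b are near-identical copies, and how their shared reads were counted is not given in the sources used here.

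Mx1, a dynamin-like GTPase whose intact form restricts influenza virus (ENSMUSG00000000386.15, chr16:97447035-97462907), had 3.97 to 7.33 CPM (median 6.50) in GF and 6.78 to 23.9 CPM (median 16.7) in CONV-R. CONV-R 1, 5, 6 and 7 lay at 16.7 CPM or above. CONV-R 2 and 3, at 8.42 and 8.02 CPM, lay just above the GF range, and CONV-R 4, at 6.78 CPM, within it. The log2 fold change was -1.23 ± 0.29 (edgeR, adjusted p = 0.0102), and the call held without any 1 library. It was lost with limma-voom (log2 fold change -0.57, adjusted p = 0.0611) and against the code 10 libraries only (-0.97, adjusted p = 0.0848). Oas2, one of the enzymes whose oligoadenylates activate RNase L (ENSMUSG00000032690.16, chr5:120730333-120749853), had 19.4 to 38.1 CPM (median 33.8) in GF and 25.5 to 151 CPM (median 72.2) in CONV-R. CONV-R 2, 3 and 4, at 25.8, 25.5 and 28.6 CPM, were within the GF range, and CONV-R 1, 5, 6 and 7, at 90.1, 72.2, 115.9 and 151 CPM, were above it. This gave a log2 fold change of -1.21 ± 0.42 (edgeR, adjusted p = 0.0499), and the call was lost without CONV-R 1, 5, 6 or 7 or any 1 of the GF libraries (adjusted p = 0.0682 to 0.102).

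The same libraries were high in effectors that did not pass. Ifi27l2a, a small membrane protein and a common marker of interferon exposure, had 10.2 to 18.6 CPM (median 11.8) in GF and 7.71 to 57.6 CPM (median 39.7) in CONV-R. CONV-R 1, 5, 6 and 7 had 54.9, 54.4, 57.6 and 39.7 CPM, while CONV-R 2, 3 and 4 had 11.3, 10.4 and 7.71 CPM. The log2 fold change of -1.30 ± 0.47 did not pass (adjusted p = 0.0595), nor did that of Oas3, at -0.89 ± 0.35 (adjusted p = 0.0766). Isg15, the ubiquitin-like modifier, had 21.0 to 28.5 CPM (median 26.6) in GF and 19.4 to 31.3 CPM (median 23.5) in CONV-R. Parp14, an ADP-ribosyltransferase, had 404 to 474 CPM (median 430) in GF and 342 to 498 CPM (median 401) in CONV-R. For both genes the GF range lay within that of CONV-R. Over the 16 effectors that did not pass, log2 fold changes ran from -1.30 (Ifi27l2a) to 0.35 (Ifit3b).

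**Figure D2:**
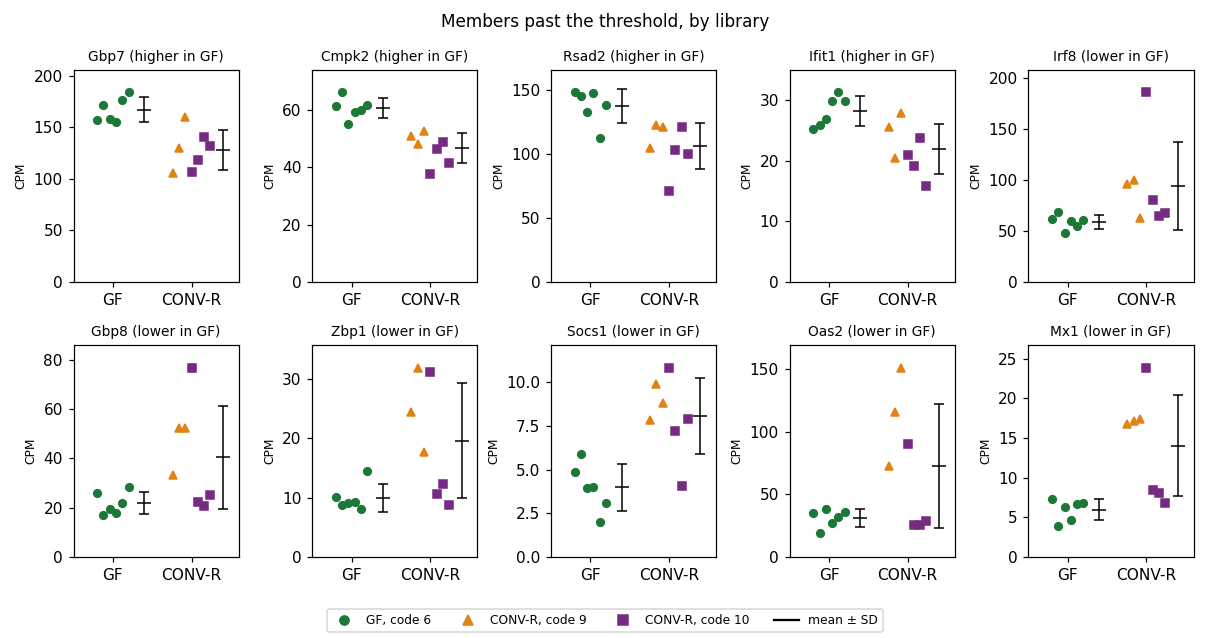
CPM of the 10 members past the threshold, with 1 point per library, GF (code 6) left of CONV-R, and mean ± SD beside each group (n = 6 and 7). Cmpk2 is the gene whose groups do not overlap; in Zbp1, Oas2, Mx1 and Gbp8, CONV-R 1 and the 3 code 9 libraries stand above the other 3 code 10 libraries.

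Of the 8 guanylate-binding proteins (GBPs), large GTPases that coat intracellular pathogens and their vacuoles, Gbp7 was higher and Gbp8 lower in GF. Gbp7 (ENSMUSG00000040253.15, chr3:142530342-142550149) had 156 to 184 CPM (median 165) in GF and 106 to 160 CPM (median 130) in CONV-R. CONV-R 7 lay within the GF range and the other 6 below it. Its log2 fold change was 0.39 ± 0.094 (edgeR, adjusted p = 0.0108), and the call held without any 1 library. Gbp8 (ENSMUSG00000034438.16, chr5:105014150-105139540) had 17.1 to 28.4 CPM (median 20.9) in GF and 20.8 to 76.8 CPM (median 33.3) in CONV-R. CONV-R 2, 3 and 4 lay within the GF range, and CONV-R 1, 5, 6 and 7 above it, with CONV-R 1 highest.

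The log2 fold change of Gbp8 was -0.88 ± 0.29 (edgeR, adjusted p = 0.0432). Its call was lost without CONV-R 1, 5, 6 or 7 or any 1 of the GF libraries (adjusted p = 0.05005 to 0.0889). The gene model of Gbp8 overlaps those of Gbp4 and Gbp9 on chromosome 5, so that reads may be shared between them. Neither Gbp4 nor Gbp9 passed. Gbp4, the most abundant GBP per kilobase in GF, had 268 to 373 CPM (median 361) in GF and 222 to 390 CPM (median 286) in CONV-R, and Gbp9 had 200 to 245 CPM (median 226) in GF and 179 to 280 CPM (median 232) in CONV-R. Gbp2 came close to the threshold, with 96.7 to 122 CPM (median 102) in GF and 74.6 to 106 CPM (median 88.8) in CONV-R (log2 fold change 0.24 ± 0.085, adjusted p = 0.0520). Gbp3, Gbp5 and Gbp6 had log2 fold changes of 0.16, 0.036 and 0.050.

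None of the 6 immunity-related GTPases, the smaller GTPases that act on pathogen vacuoles in mice, passed in either direction with edgeR, DESeq2 or limma-voom, and 1 of them, Irgm2, had an unadjusted p under 0.05 (edgeR). Irgm2, a regulatory member and the most abundant per kilobase in GF, had 122 to 182 CPM (median 145) in GF and 92.7 to 139 CPM (median 124) in CONV-R, with overlapping ranges and a log2 fold change of 0.29 ± 0.11 (adjusted p = 0.0831). The effector Iigp1 had 185 to 253 CPM (median 212) in GF and 147 to 270 CPM (median 193) in CONV-R. Irgm1 and Igtp had log2 fold changes of -0.036 ± 0.085 and 0.086 ± 0.17. Tgtp2 was at -0.13 ± 0.12, and its near-identical copy Tgtp1 at -0.34 ± 0.43, with 14.1 CPM in CONV-R 1 and at most 5.69 CPM in the other CONV-R libraries. Igtp and Irgm2 overlap on chromosome 11, so their counts are uncertain as well. Ido1, the tryptophan-degrading enzyme induced by interferon-gamma, had 0 to 5 raw counts in GF and 1 to 6 in CONV-R and was not tested.

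**Figure D3:**
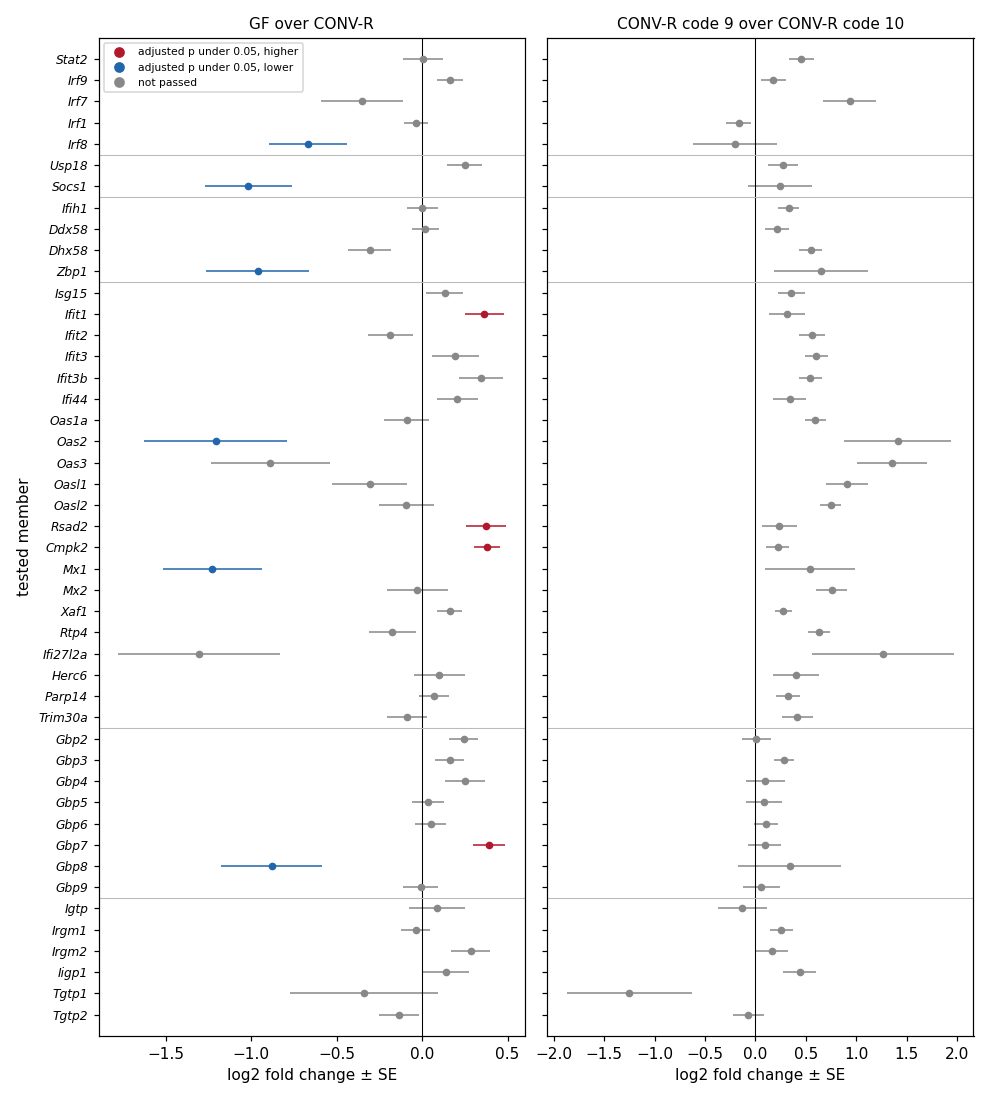
Log2 fold change ± SE of the 46 tested members, ordered by role, for GF over CONV-R (left, n = 6 and 7) and for CONV-R libraries of code 9 over those of code 10 (right, n = 3 and 4). Red and blue mark an adjusted p under 0.05, which 10 members reached on the left and 0 on the right. On the right, 41 of 46 points lie above 0.

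Within CONV-R, the libraries of code 9 ran above those of code 10 over most of the set. The log2 fold change, code 9 over code 10, was above 0 for 41 of 46 members, with a median of 0.33, against -0.0079 over 13809 genes. All 21 antiviral effectors were above 0, with a median of 0.55, as were all 4 sensors and all 8 GBPs, whose median was 0.094. Of the 6 immunity-related GTPases, 3 were above 0. In 18 members every code 9 library lay above every code 10 library, which was so for 3.98% of all genes, and 0 members had the reverse order (2.92% of genes). The plot of both contrasts shows the antiviral effectors on the upper side of 0 in the right panel.

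No gene passed an adjusted p of 0.05 in this contrast with edgeR (0% of genes in either direction), while 20 of 46 members and 6.26% of all genes had an unadjusted p under 0.05. DESeq2 called 144 genes (1.06%), among them 11 members: Stat2, Dhx58, Rtp4, Mx2, Ifit2, Ifit3, Ifit3b, Oasl1, Oasl2, Oas1a and Oas3. Without CONV-R 1, edgeR called 690 genes and 16 members. Without CONV-R 5 it called 13 genes. Oasl2, an OAS-like ubiquitin-domain protein, had 142, 148 and 153 CPM in the code 9 libraries and 75.0, 91.1, 97.1 and 90.2 CPM in CONV-R 1 to 4. Its log2 fold change was 0.75 ± 0.11 (edgeR, adjusted p = 0.254), and the groups did not overlap. Rtp4, a chaperone of membrane receptors, had 100.6, 98.2 and 99.1 CPM in code 9 and 61.4, 66.1, 73.2 and 56.1 CPM in code 10, again without overlap. Oas1a had 70.7, 71.3 and 64.8 CPM in code 9 and 52.0, 44.8, 43.8 and 42.8 CPM in code 10. In these genes CONV-R 1 lay below every code 9 library, which it did not in Oas2, Mx1, Zbp1, Gbp8 and Ifi27l2a.

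Depth, which was 7590320 to 15523860 counts in code 9 and 18276439 to 32869515 in code 10, moved with the code. So did the sum of neutrophil and monocyte markers, at 855, 1530 and 2316 CPM in code 9 and 366, 419, 377 and 289 CPM in code 10. Of its genes, S100a8, S100a9 and Csf3r were higher in every code 9 library than in any of code 10. Others did not follow the code: Ly6c2, Ccr2 and Plac8 were highest in CONV-R 1, of code 10, at 27.9, 48.4 and 142 CPM. Kupffer cell markers summed to 9194, 9059 and 5507 CPM in code 9 and to 8088, 4095, 4054 and 3365 CPM in code 10. Hepatocyte markers summed to 3794, 2155 and 6504 CPM in code 9 and to 7302, 2639, 1496 and 1179 CPM in code 10. The 4 libraries in which Oas2, Zbp1, Mx1, Gbp8 and Ifi27l2a were high had the 4 highest Kupffer cell sums. This order was not particular to Kupffer cells. The same 4 libraries were highest in the hepatocyte markers Apob, Hp, Fgb and Fgg, but not in Alb or the hepatocyte sum. The part of these cells in the values was not tested.

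**Figure D4:**
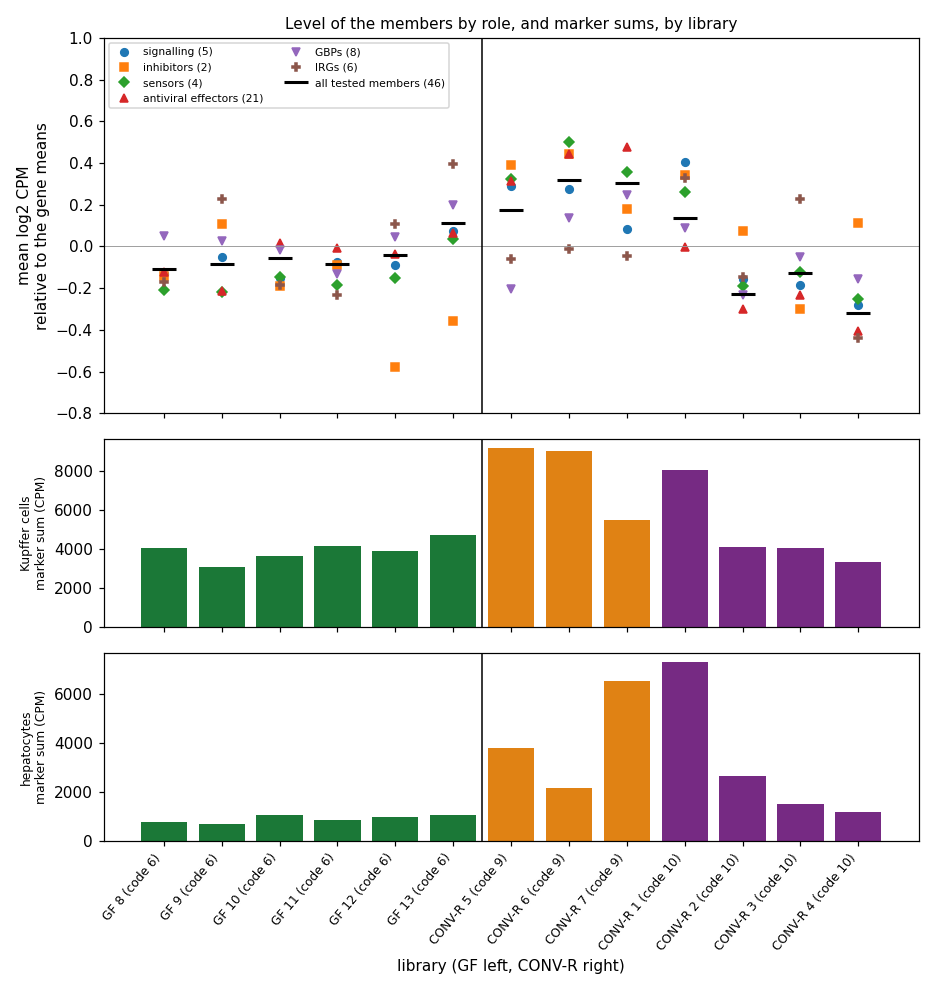
Top, the mean of centred log2 CPM over the tested members of each role and over all 46 (black bars), by library; middle and bottom, summed CPM of the Kupffer cell and hepatocyte markers. GF libraries (left) lie between -0.107 and 0.112 over all members and CONV-R libraries between -0.318 and 0.318, with CONV-R 1, 5, 6 and 7 above 0 and 2, 3 and 4 below.

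Averaged over the 46 tested members, the centred log2 level was -0.107 to 0.112 in GF libraries. Among CONV-R libraries it was 0.176, 0.318 and 0.304 in CONV-R 5, 6 and 7, 0.137 in CONV-R 1, and -0.227, -0.128 and -0.318 in CONV-R 2, 3 and 4. The GF libraries thus lay between these sets of CONV-R libraries, and GF 13 was the highest of them. Over all 13915 genes tested, the same level was 0.124 in CONV-R 1, near that of the members. It was 0.0081 to 0.049 in CONV-R 5 to 7, -0.050 to 0.027 in CONV-R 2 to 4 and -0.051 to -0.0086 in GF. The effectors alone ranged from -0.213 to 0.066 in GF and from -0.407 in CONV-R 4 to 0.479 in CONV-R 7. The immunity-related GTPases followed another order, highest in GF 13 (0.395) and CONV-R 1 (0.329) and lowest in CONV-R 4 (-0.438). Their CONV-R 1 value includes low-count Tgtp1, at 14.1 CPM there and at most 6.11 CPM in any other library. The others did not share 1 order there: Iigp1, at 147 CPM, was lowest of all libraries, while Igtp, at 71.6 CPM, was highest of CONV-R. The GBPs were highest in CONV-R 7 (0.248) and lowest in CONV-R 2 (-0.235).

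Which members passed against GF therefore depended on the CONV-R libraries used. Against the 3 code 9 libraries alone, 2 members were higher in GF (Cmpk2 and Gbp7) and 18 lower, where 16.2% of all genes were higher and 17.9% lower. The 18 were Stat2, Irf7, Irf8, Socs1, Dhx58, Zbp1, Ifit2, Oas1a, Oas2, Oas3, Oasl1, Oasl2, Mx1, Mx2, Rtp4, Ifi27l2a, Trim30a and Gbp8. Against the 4 code 10 libraries alone, 10 members were higher (Usp18, Ifit1, Ifit3, Ifit3b, Rsad2, Cmpk2, Xaf1, Herc6, Gbp3 and Gbp7) and 0 lower, where 6.89% of genes were higher and 7.05% lower. At an unadjusted p under 0.05 (edgeR), 3 members were lower there. The 6 members called lower over all libraries stayed below 0 against code 10, from -0.44 (Oas2) to -0.97 (Mx1). Irf8 was at -0.75 ± 0.27 against code 10 and at -0.56 ± 0.14 against code 9. These contrasts share the GF libraries. The median log2 fold change of the members was -0.11 against code 9 and 0.15 against code 10. Against CONV-R 2, 3 and 4 only, a choice made after seeing the data, 16 members were higher and 0 lower (2 at an unadjusted p under 0.05), beside 9.47% and 9.55% of genes. Irf7 was then 0.39 above CONV-R on the log2 scale and Mx2 0.38. With limma-voom over all libraries, Irf8 and Socs1 still passed as lower, while Zbp1, Oas2 and Gbp8 did not, at log2 fold changes of -0.37, -0.25 and -0.25.

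Models that held the marker sums as covariates removed all 6 calls of lower members. With the hepatocyte sum, 2 members were higher (Irf9 and Ifit1) and 0 lower (0 also at an unadjusted p under 0.05, edgeR), beside 2.02% and 1.65% of genes. Oas2 then had a log2 fold change of 0.24 ± 0.53 and Gbp8 of 0.14 ± 0.33, and Irf8, Zbp1 and Mx1 were at -0.055, -0.13 and -0.11. Socs1 kept most of its fold change, at -0.74 ± 0.39 (adjusted p = 0.352), as did Gbp7, which no longer passed as higher, at 0.35 ± 0.15 (adjusted p = 0.229). With the Kupffer cell sum, 7 members were higher (Irf9, Usp18, Ifit1, Ifit3, Ifit3b, Cmpk2 and Gbp3) and 0 lower (2 at an unadjusted p under 0.05), beside 4.81% and 3.88% of genes. Socs1 was at -0.86 ± 0.30 there (adjusted p = 0.0935), and the other 5 were between -0.54 (Mx1) and -0.16 (Zbp1). Every hepatocyte sum was lower in GF than in CONV-R, so that this covariate cannot be told apart from the group.

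Further genes of the pathway are given by role, from lists of known parts of it. Beside the counts called for each list, 11.4% of all genes tested were higher in GF and 12.7% lower. An unadjusted p under 0.05 was reached by 38.9% of all genes (edgeR). Of 21 interferon ligands, Ifng, the gene of interferon-gamma, was the one with enough counts to test. It had 0.548 ± 0.234 CPM in GF and 1.24 ± 1.10 CPM in CONV-R (SD, n = 6 and 7), and the difference did not pass (edgeR, adjusted p = 0.145). Ifna2 and Ifnb1 had 1 count each, in CONV-R 3 and CONV-R 5, and the other ligands were at 0 in all libraries. Of 6 receptor chains, 0 were higher and 2 lower: Ifngr2, the signalling chain for interferon-gamma, with a log2 fold change of -0.30 ± 0.072, and Il10rb, a chain for lambda interferons, with -0.15 ± 0.047 (edgeR, adjusted p = 0.0111 and 0.0376). No receptor had an unadjusted p under 0.05 for a higher level. Il10rb had 110 to 118 CPM in GF and 118.96 to 140 CPM in CONV-R, without overlap.

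Among the receptor kinases, Jak1 was higher, with 2020 ± 114 CPM in GF and 1574 ± 291 CPM in CONV-R (log2 fold change 0.36 ± 0.12, edgeR, adjusted p = 0.0389). Of 10 inhibitors of the signal, 2 were higher (Irf2 and Ptpn11) and 4 lower (Ptpn2, Trim24, Socs3 and Ptpn6). Ptpn2, a phosphatase of JAK1, had 24.3 ± 2.32 CPM in GF and 36.3 ± 4.57 CPM in CONV-R (log2 fold change -0.58 ± 0.088, edgeR, adjusted p = 8.16e-04). Its highest GF value was below its lowest CONV-R value. Trim24, a repressor of interferon-stimulated genes in mouse liver, had 45.9 ± 3.27 CPM in GF and 69.3 ± 10.1 CPM in CONV-R (-0.59 ± 0.092, adjusted p = 9.16e-04), also without overlap. Irf2, which opposes Irf1 at the same sites, had 133 ± 14.4 CPM in GF and 95.6 ± 15.2 CPM in CONV-R.

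Of 5 other interferon regulatory factors, Irf2 was higher, and Irf4 and Irf5, factors of lymphoid and myeloid cells, were lower. Of 14 sensors and adaptors upstream of interferon, 2 were higher (Trim25 and Tlr3) and 5 lower (Traf3, Aim2, Tmem173, Ikbke and Tlr9). Traf3, an adaptor that leads to interferon induction, had 24.9 ± 1.18 CPM in GF and 41.6 ± 5.94 CPM in CONV-R (log2 fold change -0.74 ± 0.085, edgeR, adjusted p = 1.10e-04). Tmem173, which encodes STING, had 52.4 ± 6.35 CPM in GF and 68.0 ± 9.72 CPM in CONV-R.

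Of 38 other interferon-stimulated genes, 1 was higher (Tor3a) and 7 lower (Isg20, Uba7, Slfn2, Ifi47, Ddx60, Gbp11 and Slfn8), and 30 did not pass. Uba7, the activating enzyme for ISG15, had 181 ± 16.2 CPM in GF and 234 ± 37.7 CPM in CONV-R. Of 20 antigen presentation and chemokine genes induced by interferon-gamma, 0 were higher and 2 lower (0 and 4 at an unadjusted p under 0.05): Ciita, the activator of MHC class II, with 7.93 ± 2.0 CPM in GF and 27.0 ± 38.7 CPM in CONV-R, and Cxcl11, with 0.328 ± 0.111 CPM in GF and 0.704 ± 0.239 CPM in CONV-R. For Ciita the CONV-R SD was larger than the mean, and Cxcl11 was low in both groups. Beside these calls, the B cell and hepatocyte marker sums were lower in GF, as given above, and their part in the counts was not tested.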

How the data were processed

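RNA of LECs was read as stranded mRNA libraries on an Illumina NovaSeq6000, per the labels' protocols. The deposited values are raw counts for each gene symbol and library, in a single table. The submitters' processing notes name build mm10 and the tools STAR 2.7.5a, featureCounts 2.0.1 (Subread), DESeq2 1.42.1 and FastQC 0.11.9. Annotation, strand setting and handling of reads with several matches: not given in the sources used here. Counts of overlapping genes and near-identical copies are therefore uncertain. Groups came from the labels.

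For the tests, edgeR 4.0.16 was run in R 4.3.3 on the deposited counts. The filter was filterByExpr with a minimum count of 10 and a minimum total of 15. Scaling was by TMM, and robust quasi-likelihood models had group as the sole term. Benjamini-Hochberg adjustment covered all 13915 genes, and 0.05 was the threshold. Fold changes, on the log2 scale, have GF over CONV-R and come with standard errors. Code 9 was set against code 10 within CONV-R in the same way. Marker sums (CPM of unscaled totals, as log2 after adding 1) were compared by exact two-sided permutation of the 13 libraries over 1716 splits, with a smallest p of 5.83e-04. Coordinates and exon lengths are from the GENCODE annotation of GRCm38, the build that mm10 denotes, and promoters from RefSeq.

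The members and lists were chosen with earlier results of these data known. Described in full are members past the threshold and, per role, the most abundant member where none passed. A gene of the pathway lists is not reported here. Members close to the threshold, or high in the same libraries, were added after their values were seen. The GF against CONV-R fit was tested on simulated data (13915 genes): it recovered 49.3% of 67 genes at 1.5-fold, 79.1% of 67 at 2-fold and 90.9% of 66 at 4-fold. The simulated libraries were independent and had the same dispersion in both groups. The larger spread in CONV-R and the differences between code numbers were left out, so these shares may not hold for the real libraries. The biological coefficient of variation was 0.264, so counting error is a small part of the spread. All pairs of libraries within a group differed by more than sampling noise, the lowest chi-square per degree of freedom being 14.1. Alternatives were DESeq2 1.42.0, limma 3.58.1 voom with quality weights, other scalings, filters and thresholds, each code number alone, marker sums as covariates and leaving out each library. Leaving out CONV-R 1 and 7 together, and keeping CONV-R 2, 3 and 4 only, were chosen after seeing the data.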

Additional observations from a re-analysis of the deposited data

Results flagged for a closer look

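Single libraries far from the rest of their group (Dixon's test) were found in 12 of 110 sets of values searched (10.9%), where chance gives about 5%. In GF 13, Zbp1 was at 14.5 CPM, against 8.06 to 10.2 CPM in the other GF libraries, and Gbp3 at 115 CPM, against 92.2 to 97.2 CPM. GF 8 had the lowest Ifi44, an interferon-induced gene, at 76.7 CPM, against 94.7 to 102 CPM in the other GF libraries. The same library had the highest marker sums of its group for neutrophils and monocytes (246 CPM, others 126 to 153), B cells (37.96 CPM, others 20.1 to 26.0) and T and NK cells (192 CPM, others 53.4 to 81.1).

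CONV-R 1 stood apart for 3 members. Irf8 was at 186 CPM there, against 63.03 to 99.8 CPM in the other CONV-R libraries. Rsad2 was at 70.9 CPM, against 100.2 to 122 CPM, and Tgtp1 at 14.1 CPM, against 2.25 to 5.69 CPM. Its B cell sum was 1775 CPM, against 59.1 to 84.8 CPM, and its T and NK cell sum 239 CPM, against 52.7 to 92.2 CPM. Without CONV-R 1, Irf8 and Rsad2 still passed. In CONV-R 7, Herc6, which encodes the ligase that attaches ISG15 in mice, was at 105 CPM, against 49.8 to 61.7 CPM. Herc6 passed as higher in GF when CONV-R 7 was left out and did not pass with it.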

How the results depend on the processing

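No paired analysis was possible because the groups share no replicate numbers. Over 144 named genes and 3742 values under alternatives, 2989 kept their direction and their side of the threshold, 320 lost a call in the same direction, 120 gained one, and 20 turned sign where a call stood in either fit. Another 293, in 78 genes, turned sign with no call in either fit. In GF against CONV-R, 1593 genes were higher and 1764 lower. These counts were 970 and 2768 with library totals, 629 and 579 at a threshold of 0.01, 978 and 1000 with code 10 only, 281 and 230 with the hepatocyte covariate, 669 and 540 with the Kupffer cell covariate, and 1013 to 1765 and 1208 to 1972 when 1 library was left out. Members higher and lower, 4 and 6, were 11 and 2 with limma-voom, 2 and 8 with library totals, 4 and 2 with no filter, 1 and 0 at 0.01, 10 and 0 with code 10 only, 2 and 18 with code 9 only, 2 and 0 with the hepatocyte covariate, 7 and 0 with the Kupffer cell covariate, 7 and 3 without CONV-R 1 and 7, 16 and 0 with CONV-R 2, 3 and 4 only, and 2 to 6 and 2 to 9 when 1 library was left out. The median of the members was 0.23 with the hepatocyte covariate and with CONV-R 2, 3 and 4 only. Of values with a call in either fit, log2 fold changes that turned sign with CONV-R 2, 3 and 4 only were Irf7 0.39, Oas1a 0.25, Oas2 0.23, Mx2 0.38, Tlr7 0.83, Dtx3l 0.19 and Helz2 0.52. With code 9 only these were Stat2 -0.25 and Ifi35 -0.17, and with the hepatocyte covariate Oas2 0.24, Gbp8 0.14, Ptpn6 0.30, Irf4 0.15, Irf5 0.31, Ikbke 0.18, Tlr9 0.092, Ifi47 0.11, Slfn2 0.20, Slfn8 0.30 and Ciita 0.17. The endothelial sum, 0.249 higher in GF on the log2 scale, ranged from 0.156 to 0.285 when 1 library was left out and missed the threshold without any 1 GF library (adjusted p = 0.0530 to 0.0707). The Kupffer cell sum (-0.690 to -0.448) passed without CONV-R 4, the plasmacytoid sum (-0.201 to -0.0862) without CONV-R 7, and the conventional dendritic cell value, -0.737, when logs were averaged. Code 9 over code 10 gave 144 genes and 11 members with DESeq2, and 0 to 690 genes and 0 to 16 members when 1 library was left out with edgeR. The cause of these changes was not tested, except that leaving out libraries lowers the number of samples. Raw counts of 36 or fewer in code 9 libraries limit Tgtp1, and Ido1 was too low to test.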
